A study of Mus musculus with 6 samples.

Results

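The cytosolic ribosomal protein genes were followed in neutrophils of wild type (WT) and progranulin (PGRN) knockout (KO) mice. Members were the protein-coding genes of the table whose symbol is Rpl or Rps with a number and at most a short suffix, together with Rplp0, Rplp1, Rplp2 and Rpsa, and the kinase genes whose symbols start with Rps6k were left out. The rule used symbols and no measured value, and it found 83 of the 54532 genes, 51 of the large and 32 of the small subunit. All 6 libraries came from C57BL/6J bone marrow neutrophils that were cultured and then challenged in vitro with Candida albicans for 6 hours at a multiplicity of infection that the labels give as 1:1 and the study's text gives differently. WT replicates 1, 2 and 3 carried no gene alteration and PGRN KO replicates 4, 5 and 6 lacked progranulin, the secreted and lysosomal glycoprotein encoded by Grn. Both groups had met the fungus, no unstimulated library was analysed here, and the comparison therefore asked how the genotypes differed in stimulated cells. The study's methods describe neutrophils purified on anti-Ly-6G beads, and KO and WT mice from different suppliers. The sources used here do not say how many mice stood behind a tube, so p-values measure the spread between these libraries only, which may be technical.

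The ribosome reads messenger RNA and joins amino acids into protein. Its small subunit holds the messenger RNA and matches it to transfer RNA, and its large subunit forms the peptide bond and guides the new chain out through a tunnel. The cell makes the ribosomal proteins in balanced amounts, and many of their transcripts start with a C followed by a run of pyrimidines, the 5′ terminal oligopyrimidine (TOP) start, through which mTOR signalling and the RNA-binding protein LARP1 set their translation. In the granulocyte lineage, dividing precursors hold more ribosomes than mature neutrophils.

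Values are FPKM, fragments scaled to transcript length and library size, and the libraries held 17087344 to 18821091 fragments. The 3 WT libraries held Grn at 168.4, 161.3 and 166.1 FPKM, and the 3 PGRN KO libraries held it at 0.242, 0.206 and 0.747 FPKM, as labelled. Neutrophil markers were high in both groups, with S100a8 at a mean of 17949 FPKM in WT and 16846 FPKM in PGRN KO. Pairs of libraries of the same group differed by more than counting noise (chi-square per degree of freedom 2.83 to 11.7), so none was a repeat deposit. The library sizes behind the FPKM values were not the plain totals: the total was 1.03 to 1.04 times the size for WT libraries and 0.946 to 0.957 times for PGRN KO libraries, which raises WT values against plain totals. Genes were tested with limma on log2(FPKM + 1), adjusted over 14807 genes, and called at an adjusted p under 0.05; log2 fold changes are PGRN KO over WT on that scale.

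The starts of 8 member transcripts are shown because the TOP start is the feature this gene family is best known for, and it was not part of the rule. They are the first 25 bases of annotated GENCODE M21 transcripts, 5′ to 3′, with the C and its pyrimidine run in capitals.
Rps24: CTCTTTTCCTCCTCTCCagctccgg
Rpl32: CTTCCTTCTTCCTCggcgctgccta
Rps2: CTTCTTCTTCTTCgggagaacacgt
Rpl10: CTCTTTTCCTCTggcgcggtgacca
Rps3: CCTTTCCTTTCagcggcgcgcggct
Rps10: CTTCCTTTCCagcctccgcctcgga
Rpl4: CTTTTCCTgtgggagcagccgggta
Rps18: CTCTTCCacaggaggcctacacgcc

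The run was 17 bases long in Rps24, the longest among members, and 7 in Rps18. A C with at least 4 further pyrimidines opened some protein-coding transcript in 22 of 83 members (26.5%), against 5.12% of 21901 protein-coding genes in the same annotation. Annotated 5′ ends vary in accuracy, so the count covers the annotation and not the ends in these cells.

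Promoters of 2 members are shown because they hold letters common to this family. They come from RefSeq (GRCm38.p6), run from 120 bases before to 20 bases from the annotated start, and have in capitals any copy of the searched letters CTTTCC (gene strand) and CCGGAAG (either strand, the core bound by ETS-type factors). Rpl38 shows both, and the stretch of Rpl35 shows CTTTCC.
Rpl38, chr11:114668460-114668599, plus strand: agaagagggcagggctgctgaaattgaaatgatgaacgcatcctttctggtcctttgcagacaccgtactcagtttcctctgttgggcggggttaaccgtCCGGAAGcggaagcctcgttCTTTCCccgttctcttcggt
Rpl35, chr2:39005112-39005251, minus strand: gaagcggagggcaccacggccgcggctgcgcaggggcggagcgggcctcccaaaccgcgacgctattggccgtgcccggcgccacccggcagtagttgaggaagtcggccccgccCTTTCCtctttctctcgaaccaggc

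In windows from 250 bases before to 50 after the start, available for 63 members, CTTTCC was found in 25 (39.7%) against 16% of 16497 protein-coding genes. CCGGAAG was found in 26 members (41.3%) against 13.3% of protein-coding genes. The YY1 letters AAGATGGC, on either strand, were in 6 members (9.52%) against 3.64%, and the GC box GGGCGG, on either strand, was in 39 (61.9%) against 51%. The 4 words share no full copy of each other, and each match is a description of letters, not of binding.

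Ribosomal protein transcripts were higher in PGRN KO than in WT neutrophils, in both subunits. Their FPKM values summed to 8152, 8054 and 7675 per WT library and to 9960, 10202 and 10000 per PGRN KO library. The lowest PGRN KO sum exceeded the highest WT sum, and the means were 7960 ± 252 and 10054 ± 130 (SD, n = 3 each), a ratio of 1.26. As a share of all FPKM, the members took 1.82% ± 0.045 of WT and 2.42% ± 0.039 of PGRN KO libraries (SD over 3 libraries each).

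Of the 83 members, 82 passed the filter on low values (mean FPKM 0.1 or more), and Rpl10l was listed at 0 in all libraries. Of these, 51 rose in PGRN KO and 1 fell, whereas 7.94% of all genes tested were called higher and 9.95% lower (limma, adjusted p under 0.05). Among all 3482 genes averaging 10 FPKM or more, the share called higher was 13.8%, and 50 of the 76 members at that level rose. In 64 members every PGRN KO library lay above every WT library, against 18.1% of all genes tested, and in 4 every PGRN KO library lay below, against 19.6%. The median log2 fold change of the members was 0.30 (quartiles 0.18 and 0.43), beside 0.0026 over all genes tested and −0.054 over all genes at 10 FPKM or more. The log2 fold change was above 0 in 73 members and below 0 in 9.

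The counts depended on the scaling and on single libraries. With plain totals of fragments in place of the sizes behind the FPKM, 67 members were called higher and none lower, against 14.5% of all genes called higher and 6.31% lower, and the log2 fold change was above 0 in 76 members. The fit without PGRN KO replicate 5 gave the fewest calls, 36 higher and none lower, and 33 members were called higher in the full fit and in every fit that left out 1 library.

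**Figure D1:**
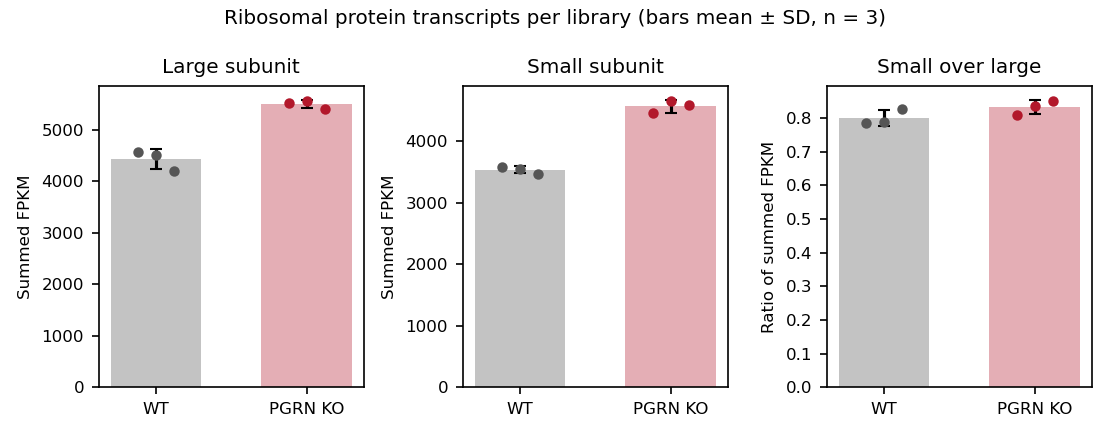
Summed FPKM of the large subunit genes (left) and small subunit genes (middle) and the ratio of the small to the large sum (right) in the 6 libraries; points are libraries, bars are means with SD (n = 3). Both sums are higher in all PGRN KO libraries, while the ratio overlaps between groups, with 0.784 to 0.826 for WT and 0.808 to 0.849 for PGRN KO.

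Both subunits rose. The large subunit genes summed to 4569, 4506 and 4203 FPKM in WT and 5508, 5556 and 5408 FPKM in PGRN KO, a ratio of means of 1.24. The small subunit genes summed to 3583, 3548 and 3472 FPKM in WT and 4453, 4645 and 4591 FPKM in PGRN KO, a ratio of 1.29. Neither sum overlapped between the groups. Of the 50 large subunit genes tested, 27 rose and 1 fell, with a median log2 fold change of 0.28. Of the 32 small subunit genes, 24 rose and none fell, with a median of 0.36. The small to large ratio of summed FPKM was 0.784, 0.787 and 0.826 in WT and 0.808, 0.836 and 0.849 in PGRN KO. WT replicate 3 lay above PGRN KO replicate 4, so the ratios of the groups overlapped.

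**Figure D2:**
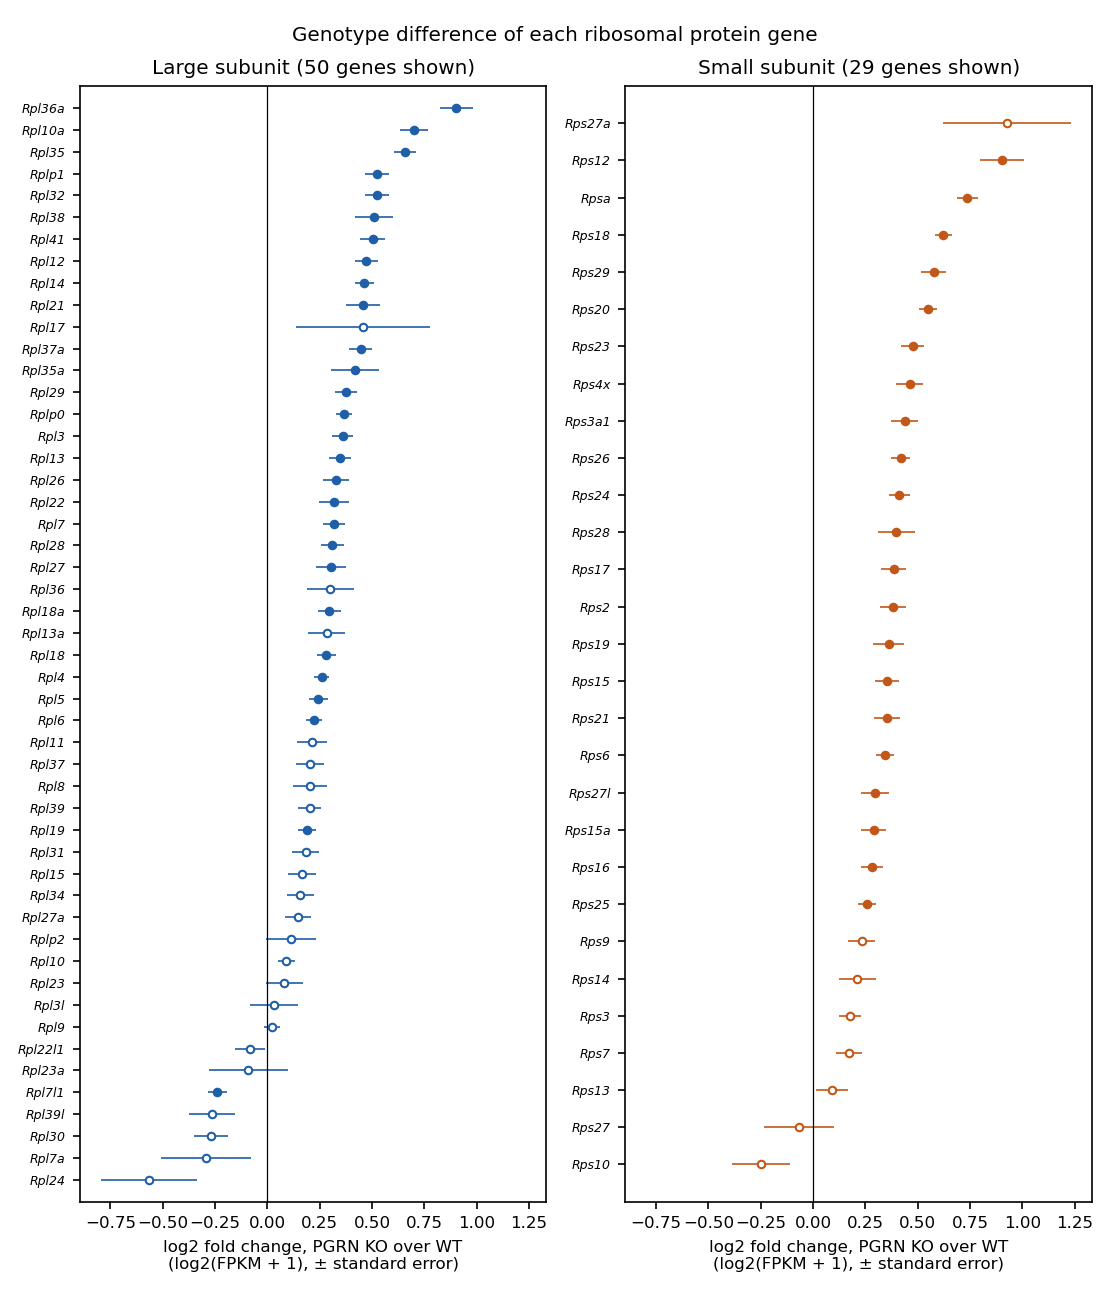
Log2 fold change, PGRN KO over WT, of the tested members shown, on the log2(FPKM + 1) scale, each with its standard error (n = 3 against 3), large subunit left and small subunit right; filled points had a limma adjusted p under 0.05. The points run from −0.56 for Rpl24 to 0.93 for Rps27a, and most lie to the right of 0.

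Among large subunit genes, Rpl36a, Rpl10a and Rpl35 rose most. Rpl36a (chrX:134585654-134588062, plus strand), which lies near the site where spent transfer RNA leaves, was at 17.8, 20.7 and 19.8 FPKM in WT and 34.8, 40.8 and 36.0 FPKM in PGRN KO. The groups were well apart, with a log2 fold change of 0.90 ± 0.079 (SE; limma, adjusted p = 0.00102). Rpl10a (chr17:28328471-28331033, plus strand), the protein of the stalk that moves with the leaving transfer RNA, was at 39.5, 33.05 and 35.6 FPKM in WT and 59.3, 58.4 and 59.6 FPKM in PGRN KO. All PGRN KO values were higher and closer together than those of WT (log2 fold change 0.70 ± 0.066 SE; limma, adjusted p = 0.00131). Rpl35 (chr2:39001580-39005624, minus strand), which sits beside the mouth of the exit tunnel and whose promoter is shown above, was at 53.4, 53.9 and 50.1 FPKM in WT and 78.9, 86.8 and 84.4 FPKM in PGRN KO. The groups did not overlap (log2 fold change 0.66 ± 0.053 SE; limma, adjusted p = 0.000725). Shared transcript sequence, treated further on, covered 83.6% of Rpl36a, 87.1% of Rpl10a and 30.7% of Rpl35. The 2 genes sharing windows with Rpl10a summed to 4.05, 30.1 and 7.95 FPKM in WT and 6.77, 4.55 and 5.37 FPKM in PGRN KO. Their peak fell in WT replicate 2, where Rpl10a itself was lowest. Such sums for Rpl36a and Rpl35 were higher in all PGRN KO libraries. The part of fragment assignment in the Rpl10a difference was not tested.

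Of the stalk proteins that recruit elongation factors to the ribosome, Rplp0 and Rplp1 rose and Rplp2 did not pass the test. Rplp1 (chr9:61913284-61914542, minus strand) was at 373.3, 404.4 and 358.3 FPKM in WT and 552.3, 564.2 and 516.7 FPKM in PGRN KO, the highest mean of all members. Each PGRN KO library was above the highest WT library, and the log2 fold change was 0.52 ± 0.06 (SE; limma, adjusted p = 0.00251). It was 0.26 and still called with a gene length trend removed. Rplp0 (chr5:115559467-115563727, plus strand), the base of the stalk, was at 347.4, 338.4 and 339.9 FPKM in WT and 427.3, 448.5 and 446.0 FPKM in PGRN KO. It rose with a log2 fold change of 0.36 ± 0.038 (SE; limma, adjusted p = 0.00197). Rplp2, the partner of Rplp1, was at 82.5, 79.8 and 63.1 FPKM in WT and 87.3, 84.0 and 71.7 FPKM in PGRN KO. Its groups overlapped and its log2 fold change of 0.11 ± 0.12 (SE) did not pass (limma, adjusted p = 0.57), though it did with voom (0.23).

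The core of the large subunit was called in part. Rpl3, close to the site of peptide bond formation, was at 46.1 ± 0.616 FPKM in WT and 59.5 ± 3.13 FPKM in PGRN KO (± SD of 3 libraries) and rose (log2 fold change 0.36). Rpl4, which lines the exit tunnel, was at 215.0, 213.4 and 208.0 FPKM in WT and 250.4, 253.6 and 258.0 FPKM in PGRN KO, a narrow spread in both groups (log2 fold change 0.26; limma, adjusted p = 0.00518). Rpl5 and Rpl11, which assemble with a small ribosomal RNA and can hold the p53 regulator MDM2, had log2 fold changes of 0.24 and 0.21. Only Rpl5 passed (limma, adjusted p = 0.0144, against 0.0855 for Rpl11), and the difference between the genes was not tested. With plain totals Rpl11 also passed (0.33; limma, adjusted p = 0.022), and Rpl5 lost its call without WT replicate 1, WT replicate 2 or PGRN KO replicate 5. Rpl10, a late-joining protein near the catalytic centre, was at 180.0, 184.0 and 178.7 FPKM in WT and 187.3, 191.0 and 199.7 FPKM in PGRN KO. The groups did not overlap, yet the log2 fold change of 0.09 ± 0.04 (SE) did not pass (limma, adjusted p = 0.18). With plain totals it was 0.21 and passed (limma, adjusted p = 0.014).

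Other large subunit genes with known roles outside translation or in the study of TOP starts are given next. Rpl22, needed in lymphocyte development, rose by a log2 fold change of 0.32, and Rpl32, whose start is shown above, by 0.52 (128.5, 125.6 and 111.9 FPKM in WT, 174.1, 175.8 and 176.1 FPKM in PGRN KO). Rpl13a, which can leave the ribosome to silence inflammatory transcripts in myeloid cells, was at 2.48, 2.38 and 2.21 FPKM in WT and 3.21, 3.44 and 2.65 FPKM in PGRN KO. Its groups did not overlap and its log2 fold change of 0.28 did not pass (limma, adjusted p = 0.0736), whereas with plain totals it was 0.37 and passed. The smallest called rises of the large subunit were Rpl6 at 0.22 and Rpl19 at 0.19, which plain totals moved to 0.34 and 0.31.

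**Figure D3:**
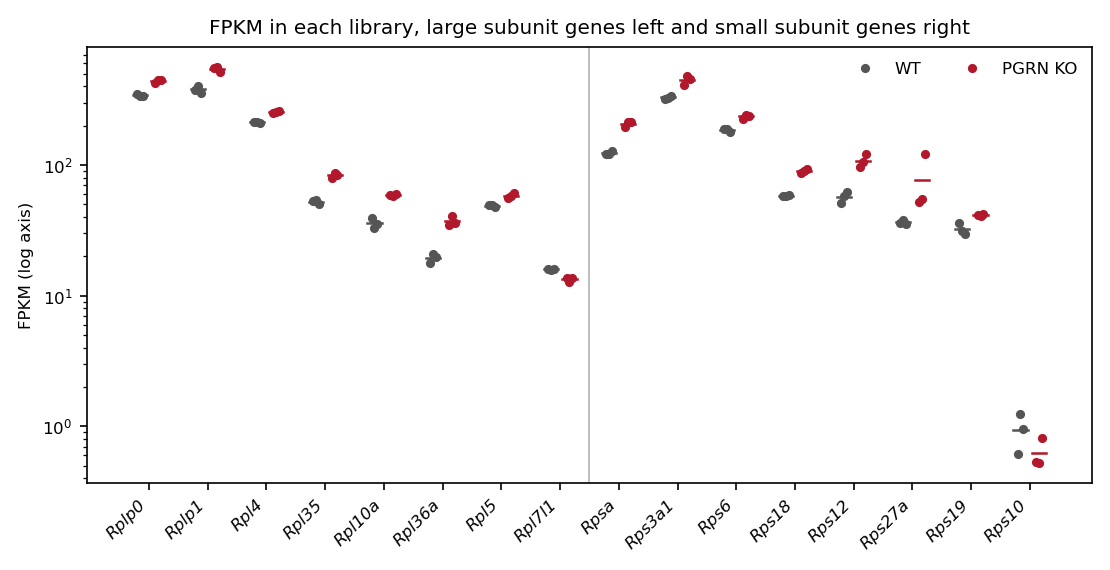
FPKM (log axis) of 16 members in each library, large subunit genes left of the line and small subunit genes right; points are libraries (WT grey, PGRN KO red) and short lines are means. Rplp1, Rplp0 and Rps3a1 stand highest, PGRN KO replicate 6 stands apart in Rps27a at 121.8 FPKM, and Rps10 is near 1 FPKM in both groups.

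In the small subunit, Rps12, Rpsa and Rps18 led the called genes. Rps12 (chr10:23785183-23787275, minus strand), a protein of the beak of the small subunit, was at 51.5, 57.7 and 62.3 FPKM in WT and 95.8, 105.6 and 122.1 FPKM in PGRN KO. The groups were far apart (log2 fold change 0.90 ± 0.1 SE; limma, adjusted p = 0.00268). Rpsa (chr9:120127689-120132369, plus strand), also known as a laminin receptor, was at 121.6, 121.6 and 128.0 FPKM in WT and 194.7, 212.7 and 213.5 FPKM in PGRN KO. Its WT values lay close together and all PGRN KO values far above them (log2 fold change 0.74 ± 0.051 SE; limma, adjusted p = 0.000405). Rps18 (chr17:33951999-33956001, minus strand), a protein of the head whose start is shown above, was at 58.2, 57.7 and 58.7 FPKM in WT and 86.8, 90.6 and 93.3 FPKM in PGRN KO. It had the smallest adjusted p of the members (log2 fold change 0.62 ± 0.041 SE; limma, adjusted p = 0.000377). Shared transcript sequence covered 81.4% of Rps12, 31.1% of Rpsa and 57.3% of Rps18, and the genes sharing windows with Rps12 are summed further on.

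Rps27a, which encodes ubiquitin fused to a small subunit protein, had the highest log2 fold change of all members, yet 1 library carried much of it. It was at 36.2, 37.9 and 35.6 FPKM in WT and 51.9, 55.1 and 121.8 FPKM in PGRN KO. All PGRN KO values were above WT, but replicate 6 stood far above the other two. The log2 fold change of 0.93 ± 0.31 (SE) did not pass (limma, adjusted p = 0.0837). Without PGRN KO replicate 6 it was 0.53 and passed (limma, adjusted p = 0.005; 0.000116 to 0.199 over the alternatives tried).

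The most abundant small subunit genes also rose, with 1 exception. Rps3a1, near the exit channel of the messenger RNA, was at 321.3, 326.4 and 339.3 FPKM in WT and 406.6, 479.0 and 455.2 FPKM in PGRN KO (log2 fold change 0.44; limma, adjusted p = 0.00697). Rps15, in the head near the decoding site, rose by a log2 fold change of 0.35. Rps9, at the entry of the messenger RNA channel, was at 267.8, 263.1 and 236.8 FPKM in WT and 313.4, 306.1 and 281.9 FPKM in PGRN KO. Its groups did not overlap, but the log2 fold change of 0.23 ± 0.065 (SE) missed the threshold (limma, adjusted p = 0.0522), and with plain totals it was 0.35 and passed.

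Rps6, the target of the S6 kinases that act below mTOR, was at 188.2, 187.2 and 180.2 FPKM in WT and 226.2, 242.8 and 237.5 FPKM in PGRN KO, and rose (log2 fold change 0.34; limma, adjusted p = 0.00356). Rps4x, encoded on the X chromosome, rose by 0.46. Rps19, often mutated in Diamond-Blackfan anaemia, was at 36.0, 31.0 and 29.6 FPKM in WT and 41.7, 40.6 and 42.3 FPKM in PGRN KO (log2 fold change 0.36; limma, adjusted p = 0.0191). The groups were apart in Rps19. Rps14, whose loss of 1 copy marks a form of myelodysplastic syndrome, was at 248.0, 244.5 and 253.0 FPKM in WT and 248.6, 311.3 and 308.0 FPKM in PGRN KO. PGRN KO replicate 4 lay within the WT range and the gene was not called (log2 fold change 0.21 ± 0.088 SE). Rps3, at the entry of the messenger RNA channel, had a log2 fold change of 0.18 and was not called (limma, adjusted p = 0.0621). With plain totals Rps14 (0.33) and Rps3 (0.30) were both called. Rps25, needed by some viral internal ribosome entry sites, was among the smallest called rises, at 0.26. With a gene length trend removed, 45 of the 51 higher calls were kept. Rps15 (0.15), Rpl19 (0.10), Rps27l (0.16), Rpl38 (0.26) and Rps21 (0.22) were among those lost. Without the filter on low values Rpl22, Rpl27 and Rps27l were not called.

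The paralogs, copies of canonical members that are often tissue-restricted, numbered 6 and gave a mixed picture, with 1 higher and 1 lower. Rpl7l1 (chr17:46773907-46782672, minus strand), a relative of Rpl7 linked to assembly of the large subunit, was at 16.02, 15.8 and 15.9 FPKM in WT and 13.7, 12.8 and 13.6 FPKM in PGRN KO. It was the only member that fell (log2 fold change −0.24 ± 0.047 SE; limma, adjusted p = 0.0161), and with plain totals it was −0.13 and no longer passed. Rps27l, a p53-responsive relative of Rps27, was at 15.5, 14.7 and 14.6 FPKM in WT and 17.2, 20.4 and 18.3 FPKM in PGRN KO (log2 fold change 0.30; limma, adjusted p = 0.0293). Rpl22l1 had −0.08, which turned to 0.03 with plain totals, and Rpl3l, the striated muscle relative of Rpl3, had 0.03. Rpl39l, known from testis, was at 0.425, 0.0721 and 0.211 FPKM in WT and at 0.0674, 0 and 0 FPKM in PGRN KO, 11 fragments in all, too few for a statement. Without the paralogs, 50 of 77 canonical members rose and none fell, with a median of 0.32.

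Canonical members with log2 fold changes below 0 or with scattered libraries are described here after their values were seen, apart from Rpl24 and Rps10, which the rule named as the lowest of their subunits. Rpl24, which forms a bridge between the subunits, was at 2.80, 1.46 and 0.964 FPKM in WT and 0.707, 0.962 and 0.691 FPKM in PGRN KO. The groups just failed to overlap, and the log2 fold change of −0.56 ± 0.23 (SE) was not called (limma, adjusted p = 0.146). Rps10, at the entry of the messenger RNA channel, was at 0.611, 1.25 and 0.960 FPKM in WT and 0.533, 0.524 and 0.814 FPKM in PGRN KO, with overlap. Rpl30 had −0.27 without overlap (limma, adjusted p = 0.0683), and Rpl7a had −0.29 with overlap. The 9 genes sharing windows with Rpl30 went the other way, without overlap. They summed to 51.0, 28.8 and 48.4 FPKM in WT and 65.5, 100.3 and 92.2 FPKM in PGRN KO. The part of fragment assignment in the Rpl30 difference was not tested. Rpl23a had −0.09 and Rps27 had −0.07, both with overlap and not called, and 80.0% and 98.4% of their windows recurred in other genes. Among the 76 members at 10 FPKM or more the median coefficient of variation was 4.57% in WT and 4.93% in PGRN KO. At that level Rpl17 varied most within WT (38.5%), at 127.7, 71.0 and 66.6 FPKM, and Rps27a within PGRN KO (51.8%).

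Ribosomal protein genes have many near-identical pseudogenes, so a share of their fragments can be assigned to another copy. For each member, every 100-base window of its transcript was looked up in the transcripts of all other genes. In 26 members under 20% of the windows recurred elsewhere, and of the 25 of these that were tested 16 rose and 1 fell, with a median log2 fold change of 0.28. In 32 members 20 to 50% recurred, and 22 rose, with a median of 0.35. In 25 members at least 50% recurred, and 13 rose, with a median of 0.28. These counts stand beside 7.94% of all genes tested called higher and 9.95% lower. Among the tested members without any shared window, Rps21, Rpl22 and Rps27l rose, while Rps3, Rpl3l and Rpl39l were not called. With a gene length trend removed, Rps21 and Rps27l lost their calls and Rps3 gained a call.

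**Figure D4:**
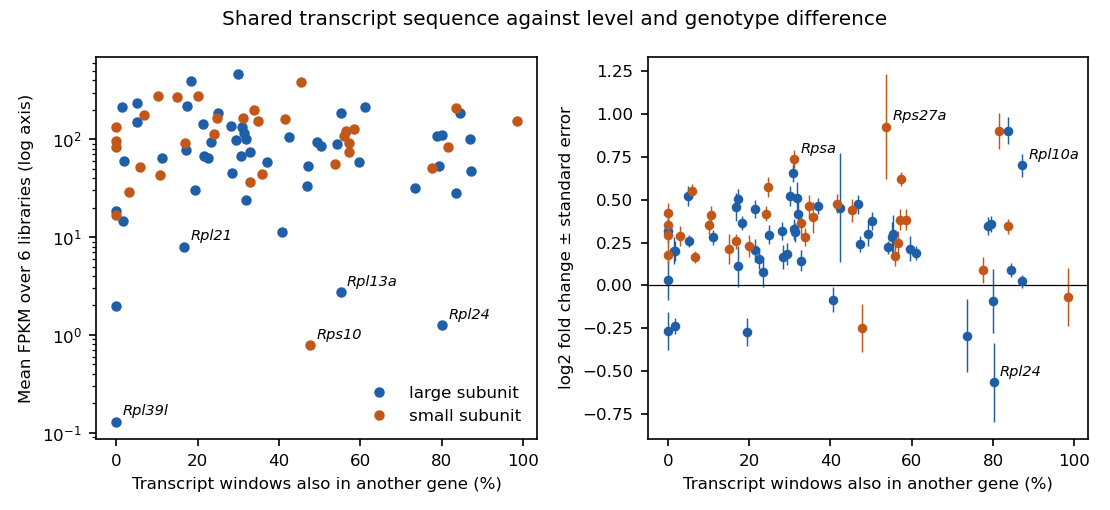
Percentage of 100-base transcript windows found in another gene (x axis) against mean FPKM over the 6 libraries (left, log axis) and against log2 fold change with its standard error (right) for the 82 tested members, large subunit blue and small subunit orange. Members with few shared windows, at the left of each panel, are mostly above 0, and of the labelled members below 10 FPKM Rpl24, Rpl13a and Rps10 share 80.1%, 55.2% and 47.7% of their windows.

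Levels of the members with shared windows are therefore uncertain. Rps10 stood near 1 FPKM, while the 3 genes that share its windows summed to 168.8, 172.0 and 173.4 FPKM in WT and 209.7, 203.5 and 198.9 FPKM in PGRN KO. Those sums were higher in all PGRN KO libraries, whereas Rps10 itself overlapped. The 18 genes that share windows with Rps12 summed to 185.7, 192.9 and 177.9 FPKM in WT and 195.9, 228.5 and 212.4 FPKM in PGRN KO, also without overlap. Over the 433 pseudogenes that share windows with members, WT libraries summed to 2178 ± 28.5 FPKM and PGRN KO libraries to 2658 ± 100.2 FPKM (SD over 3 libraries each). Of the 259 of these that were tested, 39 rose and 5 fell, and the median log2 fold change was 0.15. Beside them, 7.94% of all genes tested rose and 9.95% fell (limma, adjusted p under 0.05), around a median of 0.0026.

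Members with and without an annotated TOP start were also counted apart. Of the 22 members with an annotated TOP start 12 rose, with a median log2 fold change of 0.29. Of the 60 tested members without it 39 rose, with a median of 0.32. The share called higher among all genes tested was 7.94%. Rps24 and Rps2, with long runs, averaged 36.7 and 110.8 FPKM over WT libraries, 49.2 and 144.4 FPKM over PGRN KO libraries, and both rose. Rpl10 and Rps3, with runs of 12 and 11 bases, were not called.

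Members close to the targeted gene are given by themselves. Within 10 Mb of Grn on chromosome 11 lay Rpl27 (0.99 Mb away), Rpl19 (4.40 Mb) and Rpl23 (4.65 Mb). Rpl27 was at 83.6 ± 7.37 FPKM in WT and 103.2 ± 4.93 FPKM in PGRN KO (± SD of 3 libraries) and rose (log2 fold change 0.30), and Rpl19 rose by 0.19. Rpl23 was at 100.6, 89.9 and 81.6 FPKM in WT and 91.6, 104.1 and 91.5 FPKM in PGRN KO, with overlap and a log2 fold change of 0.08, which was 0.20 and called with voom.

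Genes around the ribosome were compared from lists of the pathway. Of 4 further ribosomal proteins with other symbols, only Rack1, a signalling scaffold on the small subunit, rose (58.2, 55.2 and 59.0 FPKM in WT, 63.8, 68.5 and 69.0 FPKM in PGRN KO). Fau, which encodes a ribosomal protein fused to a ubiquitin-like protein, had a log2 fold change of 0.08 and Rpl36al had 0.27, and neither was called. Of 13 elongation factors and other TOP-type genes, Eef1b2 and Npm1 rose (0.46 and 0.31), none fell and the median was 0.098, while Eef1a1 had −0.08. Of 77 tested mitochondrial ribosomal proteins 9 rose and 1, Mrpl52, fell, with a median of 0.12, beside 7.94% of all genes called higher and 9.95% lower. None of that list was called higher without WT replicate 2 or without PGRN KO replicate 5, 2 were without WT replicate 1 and 3 without WT replicate 3.

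Lists of factors that build and start ribosomes had medians near that of all genes. For their counts, 7.94% of all genes tested were called higher and 9.95% lower. Of 32 tested ribosome biogenesis genes 1 rose and 4 fell, with a median log2 fold change of −0.022. Ddx21, a helicase of ribosomal RNA transcription and processing, was at 5.61, 5.69 and 5.73 FPKM in WT and 4.10, 3.91 and 4.06 FPKM in PGRN KO, and Utp4, Gnl3 and Tcof1 also fell. Of 31 tested initiation factors 3 rose and 5 fell, with a median of 0.018. Eif4a1, the helicase that opens the start of messenger RNA, was at 165.8, 167.6 and 167.7 FPKM in WT and 125.0, 120.8 and 128.5 FPKM in PGRN KO (log2 fold change −0.42). Eif5 fell by 0.39 on the log2 scale, and Eif3i and Eif5a rose by 0.47 and 0.22. With plain totals 5 genes were called higher and 2 lower in each of these lists, so the balance of their calls turned with the scaling.

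**Figure D5:**
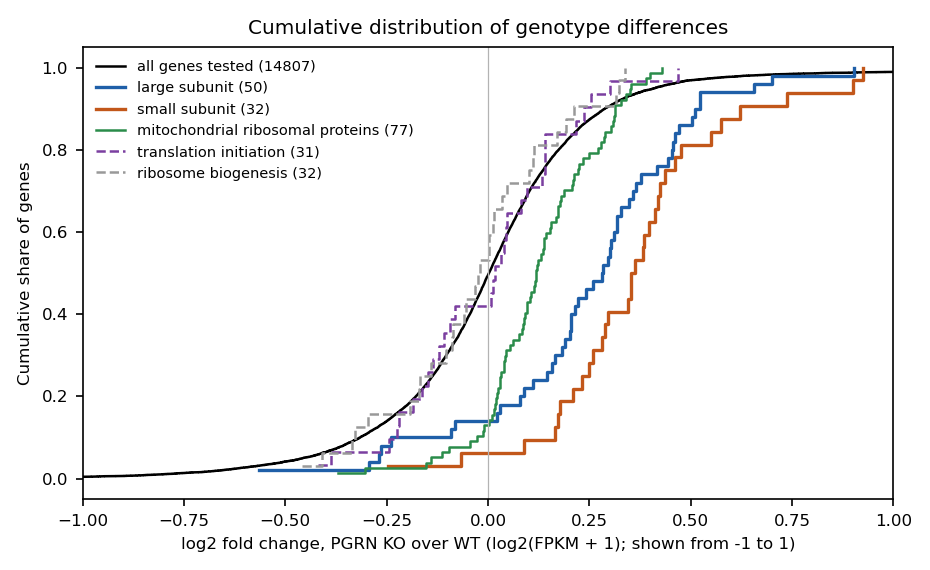
Cumulative share of genes (y axis) by log2 fold change, PGRN KO over WT, for large and small subunit genes, mitochondrial ribosomal proteins, initiation factors, biogenesis genes and all genes tested; the x axis shows −1 to 1. At their medians, 0.28 and 0.36, the lines of the large and small subunit lie to the right of all others, and those of initiation (0.018) and biogenesis (−0.022) lie near that of all genes (0.0026).

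Of 14 genes of the mTOR and MYC pathways and of TOP-binding proteins none rose and 2 fell. Over all genes tested 7.94% were called higher and 9.95% lower. Larp1, the TOP-binding repressor, was at 14.3, 14.2 and 14.1 FPKM in WT and 12.9, 11.9 and 10.8 FPKM in PGRN KO (log2 fold change −0.24; limma, adjusted p = 0.0459). Its groups did not overlap. Mxd1, an antagonist of MYC, fell by 0.20 on the log2 scale, and Mtor (−0.07) and Myc (0.39, at most 1.13 FPKM) were not called. With plain totals no gene of this list was lower and 1 was called higher, so its direction rests on the scaling. The pathway lists held 4, 13, 77, 32, 31 and 14 tested genes. Across them 28 genes changed, 16 up and 12 down, beside those shares over all genes. That total was 11, 6 and 12 without WT replicates 1, 2 and 3, and 7 and 18 without PGRN KO replicates 5 and 6.

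Markers of other cell states moved with genotype beside the ribosomal protein genes. Their counts stand beside 7.94% of all genes tested called higher and 9.95% lower. All 5 promyelocyte genes (Elane, Mpo, Prtn3, Ctsg and Ms4a3) rose, their sum running between 128.7 and 143.8 FPKM for WT, between 608.7 and 670.4 FPKM for PGRN KO. Of 10 cell cycle genes 8 rose, the WT sums lying between 185.9 and 191.7 FPKM, the PGRN KO sums between 225.4 and 241.5 FPKM. Of 8 neutrophil genes Mmp9 rose and Csf3r and Mmp8 fell.

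Of 9 B and plasma cell genes the 5 tested rose, with sums of 23.4 to 25.6 FPKM in WT and 67.5 to 82.9 FPKM in PGRN KO, mostly Jchain, while Pax5 was at 0 and Ms4a1 near 0. Of 8 T and NK cell genes Nkg7 rose, with sums of 2.76 to 3.605 FPKM in WT and 7.74 to 9.23 FPKM in PGRN KO. Nkg7 made up most of these sums, at means of 2.54 FPKM in WT and 7.79 FPKM in PGRN KO. Cd3d and Trac were tested and not called, and Cd3e and Cd3g were at 0. Of 6 erythroid genes 3 rose, with sums of 0.975 to 3.14 FPKM in WT and 5.46 to 6.21 FPKM in PGRN KO. Of 7 monocyte and macrophage genes 1, Ly6c2, rose and 2 fell, Ccr2 among them, with sums of 525.2 to 531.4 FPKM in WT and 551.3 to 701.0 FPKM in PGRN KO. Ly6c2 made up most of these sums, at means of 401.1 FPKM in WT and 521.2 FPKM in PGRN KO. For all these marker lists the causes of the differences were not tested. The part of the marker genes in the difference of the ribosomal protein genes was not tested. In these bulk libraries more cells of a type and more RNA per cell cannot be told apart.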

How the data were processed

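The authors deposited FPKM values per gene for 6 libraries (NEBNext kit, 3 WT and 3 PGRN KO). Per the labels' processing notes, reads were processed with CASAVA, HISAT2 2.0.5, featureCounts 1.5.0-p3 and DESeq2 1.20.0 on mm10 (GRCm38). The study's methods name other tools and versions for some steps, and the counting of reads with several matches is not stated in those sources. FPKM times gene length gave whole fragments for 100% of values (tolerance 0.05), from which depth was taken.

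From the FPKM values, log2(FPKM + 1) was, for genes averaging 0.1 FPKM or more, tested with limma 3.58.1 (R 4.3.3, moderated with a trend, Benjamini-Hochberg over all 14807 genes, adjusted p under 0.05). A fold change on this scale understates that of low genes. The test was checked on simulated data. Exact permutation of 3 against 3 libraries cannot go below p = 0.1 and was not used. No column was left unmatched to a library. Per-gene positions are those of the table, which matched GENCODE M21 in 81 of 83 members.

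Named members were, per subunit, the 3 highest and 3 lowest log2 fold changes among called genes, the 3 highest mean levels and the lowest canonical one, plus members fixed for a known role, paralogs, and members within 10 Mb of Grn. The members and lists were chosen with earlier results of these data known. Alternatives were other pseudocounts (0.1 and 0.5), filters, scalings, moderation, protein-coding genes alone, voom on the recovered fragments, removal of a gene length trend, other member sets and leaving out each library. Splits by shared windows were added after seeing the data. Some genes are not reported here by name, and they remain in the counts, medians and sums.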

Additional observations from a re-analysis of the deposited data

How the results depend on the processing

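No paired analysis was possible because the labels number WT libraries 1 to 3 and PGRN KO libraries 4 to 6 and share no number. The number of members called higher (51) ran from 45 to 71 over the other fits of all members and from 36 to 47 when 1 library was left out, and 16 and 13 members were called higher among those with under 20% and at least 50% of windows shared, where 17 and 13 changed in all. Members called lower (1) became 2 with a mean FPKM of at least 1, with protein-coding genes alone or with the length trend removed, and 0 with plain totals, voom, canonical members only or at least 50% of windows shared, and ran from 0 to 2 when 1 library was left out. The median log2 fold change of large subunit members (0.28) was 0.34 with quantile normalization, 0.39 with plain totals, 0.41 with voom, 0.23 and 0.22 in the low and high classes of shared windows, and 0.24 to 0.30 with 1 library left out. That of small subunit members (0.36) was 0.43, 0.48 and 0.49 under the same scalings, 0.30 in the low class, and 0.31 to 0.40 with 1 library left out. Voom moved the median of all genes to 0.12 and plain totals to 0.067. Plain totals and voom turned the calls over all genes from 7.94% higher and 9.95% lower to 14.5% and 6.31%, and to 20.2% and 8.46%. The difference in the members' share of FPKM (0.599 percentage points) was 0.651 over protein-coding genes and 0.555 without the member of highest mean FPKM and 0.472 as a share of fragments, and that in the small to large subunit ratio (0.0319) was 0.0598 with fragments and 0.023 to 0.0453 with 1 library left out. Genes changed over the pathway lists (28) were 16 without a filter, 61 with voom and 6 to 26 with 1 library left out. Rpl22l1 turned to 0.028 with plain totals and 0.029 with voom, Rpl3l to −0.02 without WT replicate 2 and −0.079 without PGRN KO replicate 4 (−0.079 to 0.095 with 1 library left out), and Rplp2 to −0.0073 without WT replicate 3 (−0.0073 to 0.20). The causes were not tested. Over the named members, 625 alternative values kept direction and side of the threshold, 33 gained and 55 lost a call, and 5 turned direction.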
